A study of Mus musculus with 24 samples.

Results

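The level of 9 genes that a mature β-cell keeps low or silent, or that mark its loss of identity, was followed in dispersed mouse islet cells. The genes are Aldh1a3, Ldha, Slc16a1, Hk1, Rest, Myc, Neurog3, Igfbp4 and Oat. They were chosen by name, all 9 were found among the 41549 genes of the deposited mouse islet table, and all 9 stood among the 15916 genes that passed the filter on low counts. Wild-type islets were dissociated into single cells and transfected with 50 pmol of an antisense oligonucleotide (ASO), either a control (Ctr) or one against the 5'tRF Glu(CTC) fragment (αGlu). A tRF is a fragment cut from a transfer RNA. The cells then received 0.5 mM palmitate bound to albumin (PA) or albumin alone (BSA, 0.75%) for 48 h. All 4 groups therefore carry an ASO, a transfection reagent and albumin, and the study's methods give donor mice of 12 to 14 weeks. There were 6 libraries in each group (BSA or PA, with the Ctr or the αGlu ASO), 3 in each of 2 batches, whose meaning the labels leave unstated. The table holds no level of the fragment, so the effect of the ASO on its target was not checked here. Libraries are named S1 to S24, with S1 to S12 in batch 1.

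A β-cell converts glucose into ATP mainly through its mitochondria, so enzymes and transporters that would let it respond to other fuels, or at low glucose, are kept low. Such genes are called disallowed, and Ldha, Slc16a1, Hk1, Igfbp4 and Oat belong to this class. Rest encodes the repressor that keeps neuronal and endocrine genes off in other tissues, and it is itself kept low in endocrine cells. When β-cells dedifferentiate they lose maturity genes and can gain Aldh1a3, Myc and, in some models, Neurog3, the factor that starts the endocrine programme in the embryo.

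The αGlu ASO and the stretch it was designed against are shown because they define the ASO groups, in lower case with the bases of the target that pair with the ASO in capitals.

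αGlu ASO: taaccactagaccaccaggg

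target: tCCCTGGTGGTCTAGTGGTTA

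The ASO has 20 bases and pairs with the target, of 21 bases, from base 2 onward.

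The 7 β-cell markers (Ins1, Ins2, Mafa, Nkx6-1, Slc2a2, Ucn3 and G6pc2) summed to 62670 to 123700 CPM over the libraries. CPM is a count scaled to library size, here after TMM scaling, which corrects for library composition. The 7 α-cell markers summed to 9602 to 25260 CPM, so these are mixed islet cells and not purified β-cells. Depth was 18214719 to 35001979 counts per library (median 26701201.5). In bulk RNA, fewer cells of a type and less RNA per cell cannot be told apart, and this holds for every value that follows. Markers of fibroblast and stellate cells summed to 135.5 to 1438 CPM over both BSA groups and to 24.7 to 210.3 CPM over both PA groups, with 6 of their 8 tested genes called lower with PA in Ctr cells. Acinar markers summed to 2414 to 16510 CPM in batch 1 and to 182.2 to 508.2 CPM in batch 2, and with PA 5 of 8 were called lower in Ctr cells (median log2 fold change -1.16) and 4 of 8 in αGlu cells (-1.05). The part of these shifts in the results was not tested.

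TPM, which divides by gene length, allows the members to be set beside each other. In Ctr BSA cells the mean TPM (SD, n = 6) was highest for Ldha at 39.1 ± 17.3, followed by Myc at 26.8 ± 20.7 and Oat at 13.2 ± 3.68. Aldh1a3 at 4.74 ± 1.91, Rest at 4.16 ± 3.36, Hk1 at 4.16 ± 1.54, Slc16a1 at 2.55 ± 1.87, Neurog3 at 1.98 ± 0.986 and Igfbp4 at 1.08 ± 0.708 formed a low tail in which neighbours differed by less than the larger of their SDs, as did Ldha and Myc. Ldha stood at the 82.04 percentile of tested genes in Ctr BSA and Igfbp4 at the 14.4 percentile. In Ctr PA the order began instead with Myc at 36.0 ± 21.9, Ldha at 18.7 ± 11.6, Oat at 12.7 ± 2.99 and Aldh1a3 at 11.2 ± 5.07 TPM. These means and SDs pool both batches, and the order of the Ctr PA means held in batch 1 only. In batch 2 of Ctr PA (n = 3) Myc was at 17.5, Aldh1a3 at 14.8, Oat at 10.7 and Ldha at 10.6 TPM. In batch 2 of Ctr BSA Oat, at 12.4 TPM, stood above Myc, at 10.9 TPM.

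**Figure D1:**
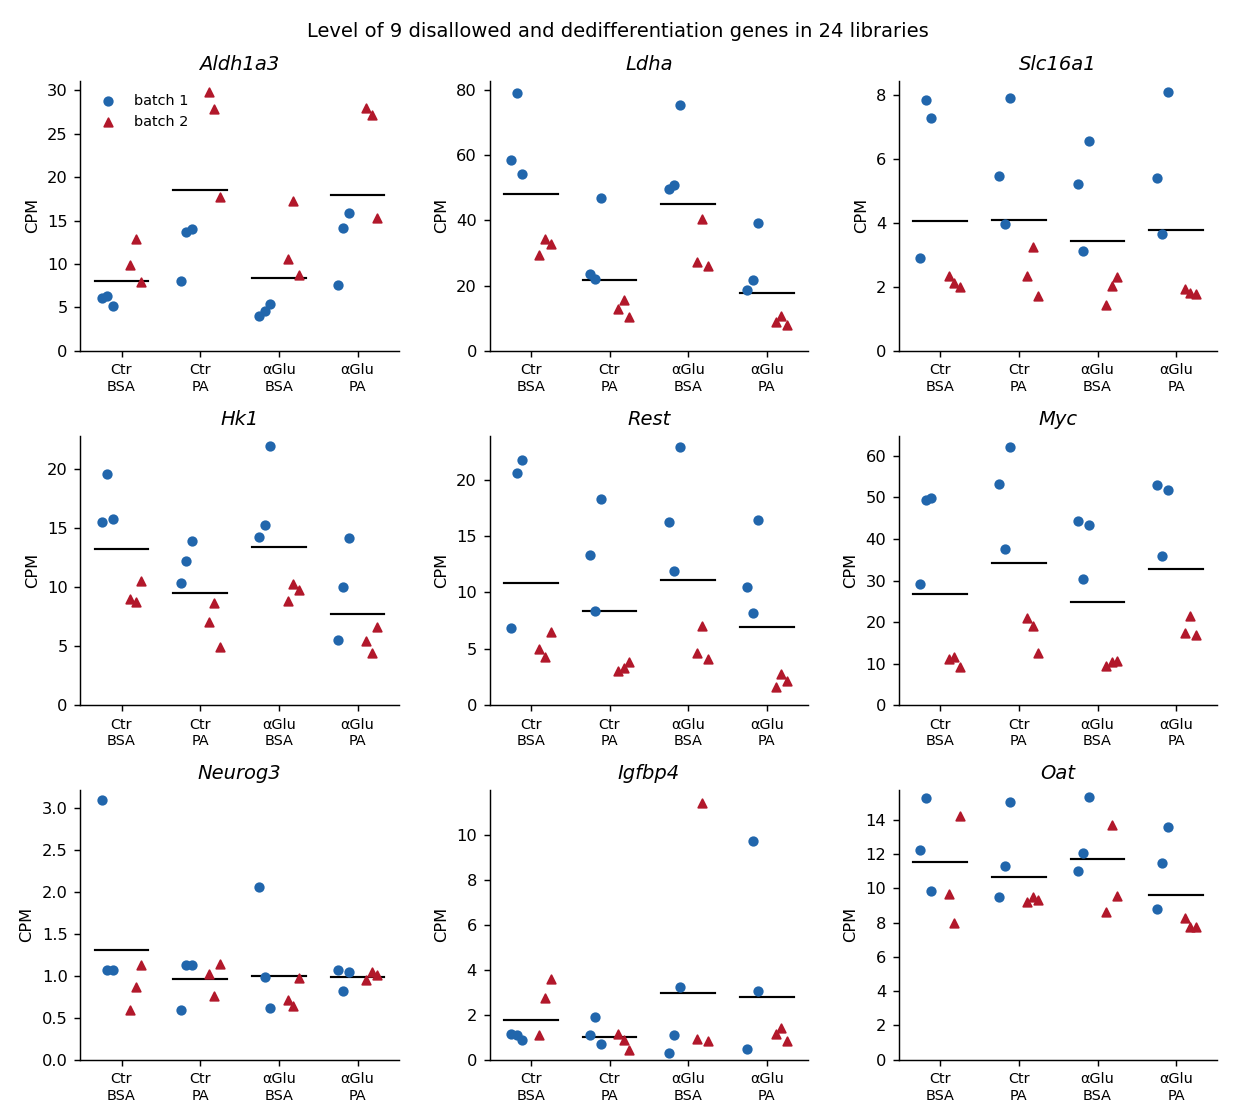
CPM (y axis, linear, from 0) of each of the 9 genes in 24 libraries by group (x axis), with circles for batch 1, triangles for batch 2 and a line at the mean of 6 libraries. Aldh1a3 sits higher and Ldha lower in both PA groups, and on average batch 2 lies above batch 1 for Aldh1a3 and below it for Ldha, Slc16a1, Hk1, Rest and Myc.

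The first question is what PA did to these genes in Ctr cells. PA raised Aldh1a3 2.25-fold and lowered Ldha to 0.439 and Hk1 to 0.721 of their BSA levels. The other 6 genes did not pass the test. Thus 3 of 9 genes were called at an adjusted p below 0.05 by edgeR's quasi-likelihood test with Benjamini-Hochberg adjustment over all 15916 genes, 1 higher and 2 lower. In the same comparison 29.5% of all tested genes were called, 15.3% higher and 14.2% lower, so the share of members called was near that of all genes. By the study's own rule (more than 2-fold at p below 0.05 before adjustment) 2 members passed (Aldh1a3 and Ldha), against 5.87% of all genes. Per the study's methods a replicate of primary cells was prepared from its own animal, and that animal's cells were split over all groups. The labels do not tie libraries to animals. The library numbers run in 6 sets of 4 consecutive libraries, 1 of each group, and taking each set as 1 animal is an assumption made here after the data were seen. With those sets as a replicate block 4 of 9 members were called in Ctr cells, Myc being the addition, against 35.1% of all genes, and 6 of 9 in αGlu cells, Oat being the addition, against 33.8%.

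In αGlu cells 5 of 9 genes were called with PA. Aldh1a3 and Myc rose while Ldha, Hk1 and Rest fell. The background was 28.3% of all genes, 14.3% higher and 14% lower, and by the study's rule 2 members passed (again Aldh1a3 and Ldha) against 5.52%. For no member did the 6 PA libraries fully separate from the 6 BSA libraries, where 5.82% of all genes did so in Ctr and 8.12% in αGlu cells. Aldh1a3, Ldha and Hk1 separated completely in both batches in Ctr cells and Ldha and Hk1 in αGlu cells, against 13.7% and 21% of all genes.

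Aldh1a3 encodes a retinaldehyde dehydrogenase that makes retinoic acid, and it is a widely used marker of dedifferentiated β-cells. The gene lies on the minus strand at chr7:66390890-66427517 of GRCm38. Its level was 5.20, 7.10 and 12.9 CPM (lowest, median and highest of 6) in Ctr BSA and 8.01, 15.9 and 29.8 CPM in Ctr PA. In αGlu BSA it was 4.04, 7.07 and 17.2 CPM and in αGlu PA 7.53, 15.6 and 27.9 CPM. Batch 2 ran higher than batch 1, as the plot of member levels shows, and in Ctr cells every PA library of a batch exceeded every BSA library of that batch. In batch 2 of αGlu cells, 1 BSA library (S18, 17.2 CPM) exceeded 1 PA library (S24, 15.3 CPM). The log2 fold change was 1.17 (SE 0.22, 95% interval 0.71 to 1.62, adjusted p = 3.69e-04) in Ctr and 1.16 (SE 0.22, 0.71 to 1.61, adjusted p = 3.78e-04) in αGlu cells. The call remained with each of the 24 libraries left out, with log2 fold changes from 1.08 to 1.26 in Ctr and from 1.07 to 1.35 in αGlu cells. It was lost in αGlu cells in batch 2 alone (0.94, adjusted p = 0.0778) and without a batch term (1.09, adjusted p = 0.0574).

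The close relatives of Aldh1a3 did not rise with it. Aldh1a2, which makes retinoic acid in stromal cells, fell from 2.60 ± 1.87 to 0.475 ± 0.286 TPM in Ctr cells (SD, n = 6), a log2 fold change of -2.35 (SE 0.59, adjusted p = 4.29e-03). Aldh1a1 changed by -0.23 (SE 0.38, adjusted p = 0.691), with 9.53 ± 8.18 TPM in Ctr BSA. Of 12 tested retinoid genes in a list of 16, 1 rose and 3 fell in Ctr cells, the median log2 fold change being -0.29 against 0.01 over all genes. The gene that rose was Rdh11, a retinal reductase (0.56, adjusted p = 2.11e-05), and Crabp2, which carries retinoic acid to its receptor, fell (-1.25, adjusted p = 0.0197). Aldh1a2 and Crabp2 thus fell in the libraries in which Aldh1a3 rose. Of 8 tested fibroblast and stellate markers 6 were called lower in the same comparison, and a link between these falls was not tested.

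Ldha encodes the muscle-type lactate dehydrogenase subunit, which turns pyruvate into lactate, and Ldhb encodes its heart-type partner. Ldha lies on the plus strand at chr7:46841475-46855627. Its level was 29.4, 44.3 and 79.1 CPM in Ctr BSA and 10.2, 18.7 and 46.9 CPM in Ctr PA, and 25.9, 44.9 and 75.4 CPM in αGlu BSA against 7.86, 14.8 and 39.2 CPM in αGlu PA. Every PA library of a batch lay below every BSA library of that batch, in both ASO groups. On the log2 scale the change was -1.19 (SE 0.22, 95% interval -1.64 to -0.74, adjusted p = 3.36e-04) in Ctr and -1.43 (SE 0.22, -1.89 to -0.98, adjusted p = 5.56e-05) in αGlu cells. The fall kept its call without any 1 library, and was -1.07 and -1.16 in batch 1 alone, where it missed the threshold (adjusted p = 0.0946 and 0.0848), and -1.32 and -1.77 in batch 2 alone, where it passed (adjusted p = 1.01e-03 and 1.65e-04). Without a batch term it missed the threshold in Ctr cells (adjusted p = 0.0684).

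Ldhb went from 20.5 ± 2.50 to 16.7 ± 2.81 TPM in Ctr cells (log2 fold change -0.38, SE 0.10, adjusted p = 6.58e-03) and from 21.2 ± 3.46 to 18.4 ± 2.94 TPM in αGlu cells (-0.20, SE 0.10, adjusted p = 0.144), a fall in the former and no call in the latter. The share of Ldha in the summed TPM of both subunits was 63.6% ± 9.33 in Ctr BSA and 49.5% ± 12.2 in Ctr PA, and 62.7% ± 8.89 in αGlu BSA and 41.7% ± 13.6 in αGlu PA (SD, n = 6). By a two-sided exact permutation test over 6 against 6 libraries the drop of 14.2 points in Ctr cells gave p = 0.0520 (adjusted over the 12 share tests, 0.156) and that of 20.9 points in αGlu cells p = 0.0130 (adjusted 0.0779). Permuted within batches, which removes the level shift between batches, these were p = 0.0150 (adjusted 0.0450) and p = 0.0100 (adjusted 0.0400), where 0.005 is the smallest p such a permutation can give. Neither permutation pairs libraries by the assumed sets. Within every such set the Ldha share was lower with PA than with BSA, in both ASO groups, and a paired test was not run.

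Slc16a1 encodes MCT1, a carrier of lactate and pyruvate across the cell membrane, and its forced expression in β-cells makes insulin secretion respond to pyruvate. It lies on the plus strand at chr3:104638668-104658462. Its level did not separate the groups, at 1.98, 2.61 and 7.84 CPM in Ctr BSA, 1.72, 3.61 and 7.91 CPM in Ctr PA, 1.42, 2.72 and 6.57 CPM in αGlu BSA and 1.77, 2.81 and 8.10 CPM in αGlu PA. The log2 fold change with PA was 0.05 (95% interval -0.44 to 0.53, adjusted p = 0.900) in Ctr and 0.09 (-0.40 to 0.58, adjusted p = 0.821) in αGlu cells. Library S1 of Ctr BSA was the lowest BSA library of batch 1 in Ctr cells, at 2.90 CPM against 7.27 and 7.84 CPM. With 2 surrogate variables in the model, which absorb unlabelled variation between libraries, the value in αGlu cells was 0.39 (adjusted p = 0.0434).

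Slc16a3 (MCT4), the carrier of glycolytic cells, fell from 2.03 ± 0.928 to 1.03 ± 0.545 TPM in Ctr cells (log2 fold change -1.13, SE 0.34, adjusted p = 0.0147) and from 2.10 ± 0.793 to 0.686 ± 0.428 TPM in αGlu cells (-1.65, SE 0.35, adjusted p = 1.05e-03). Slc16a7 (MCT2) changed by -0.52 (SE 0.22, adjusted p = 0.0774) in Ctr and fell by 0.67 (SE 0.22, adjusted p = 0.0249) on the log2 scale in αGlu cells. Slc16a1 thus made up 40.9% ± 11.6 of the summed TPM of the 3 carriers in Ctr BSA and 57.2% ± 4.82 in Ctr PA, and 39.7% ± 12 in αGlu BSA and 62.3% ± 9.47 in αGlu PA (SD, n = 6). The differences of 16.3 and 22.6 points gave p = 0.0195 and p = 8.66e-03 by the exact permutation test over all libraries (adjusted 0.0779 for both), and p = 0.0100 for both within batches (adjusted 0.0400). Here too the assumed sets were left unpaired. Within every set the Slc16a1 share was higher with PA than with BSA, in both ASO groups.

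**Figure D2:**
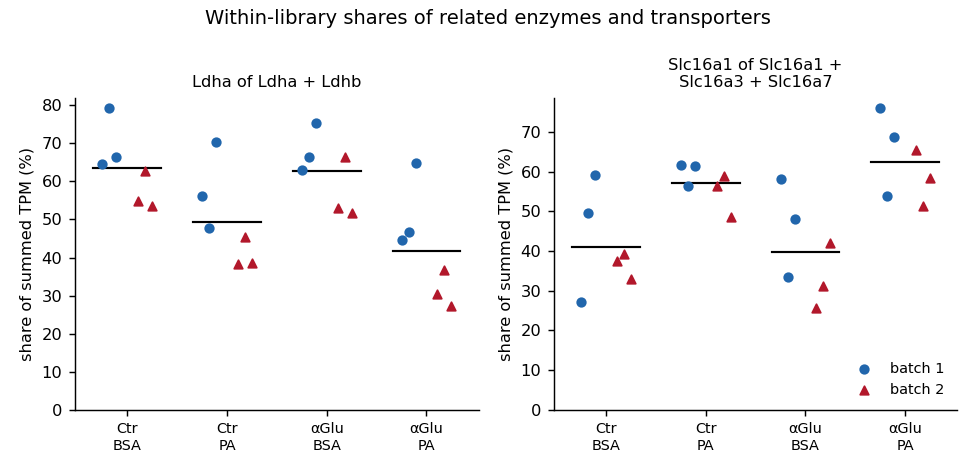
Share (%, y axis) of Ldha and Slc16a1 in the summed deposited TPM of both lactate dehydrogenase subunits or of the 3 carriers in each library, by group, with circles for batch 1, triangles for batch 2 and a line at the mean of 6. With PA the Ldha share fell on average from 63.6% to 49.5% in Ctr and from 62.7% to 41.7% in αGlu cells, while that of Slc16a1 went from 40.9% to 57.2% and from 39.7% to 62.3%.

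Hk1 encodes hexokinase 1, which phosphorylates glucose already at low glucose concentrations. It lies on the minus strand at chr10:62268855-62379908. Its level was 8.73, 13.01 and 19.6 CPM in Ctr BSA and 4.94, 9.47 and 13.9 CPM in Ctr PA, and 8.80, 12.3 and 21.9 CPM in αGlu BSA against 4.45, 6.07 and 14.1 CPM in αGlu PA. All PA libraries lay below all BSA libraries of their own batch in both ASO groups. On the log2 scale the change was -0.47 (SE 0.16, 95% interval -0.81 to -0.13, adjusted p = 0.0314) in Ctr and -0.80 (SE 0.17, -1.14 to -0.46, adjusted p = 7.12e-04) in αGlu cells.

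The call of Hk1 in Ctr cells was lost without 1 of 5 libraries (S3, S11 or S23 of Ctr PA, or S5 or S21 of Ctr BSA), with adjusted p from 0.0528 to 0.0753 and log2 fold changes from -0.47 to -0.40. It was also lost with no filter on low counts (adjusted p = 0.0549), without a batch term (0.306), in batch 1 alone (-0.50, adjusted p = 0.279), in batch 2 alone (-0.46, adjusted p = 0.151) and with 2 surrogate variables, where the log2 fold change was -0.27 (adjusted p = 0.236). In αGlu cells it kept its call without any 1 library, and lost it without a batch term (-0.80, adjusted p = 0.0783) and in batch 1 alone (-0.80, adjusted p = 0.0906). With the replicate block the adjusted p was 4.79e-03 in Ctr and 2.13e-05 in αGlu cells, and PA lay below BSA in 6 of 6 sets in both. Hk2, the hexokinase of muscle and fat, fell by 0.92 (SE 0.25, adjusted p = 7.78e-03) in Ctr and by 1.04 (SE 0.26, adjusted p = 3.45e-03) in αGlu cells on the log2 scale. The antisense gene Hk1os shares 157 exon bases with Hk1, but it held 75 counts over all libraries against 7028 for Hk1.

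Around these enzymes, a list of 20 lactate, pyruvate and hexokinase genes held 2 that rose and 4 that fell in Ctr cells, the median log2 fold change being 0.08. Pdk4, the kinase that shuts pyruvate dehydrogenase when fat is burned, rose from 16.1 ± 2.71 to 39.2 ± 9.996 CPM (log2 fold change 1.26, SE 0.15, adjusted p = 2.40e-06). Pdha1, a subunit of pyruvate dehydrogenase itself, rose by 0.24 (adjusted p = 2.72e-03). Ldhb, Hk2 and Slc16a3 were among those that fell.

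Of the 17 other disallowed genes, all tested, none rose and 8 fell in Ctr cells, the median log2 fold change being -0.76. In αGlu cells 7 fell and none rose, with a median of -0.90. The smallest p values in Ctr cells belonged to Cxcl12, a chemokine (-1.17, adjusted p = 2.17e-03), Arhgdib, a gene of blood cells (-1.57, adjusted p = 2.58e-03), and Maf, a transcription factor of macrophages and stroma (-2.83, adjusted p = 3.71e-03). Those 3 genes are known for expression outside β-cells. In the same comparison 6 of 8 tested fibroblast and stellate markers were called lower. In Ctr cells 5 of 8 macrophage markers fell, among them Csf1r from 7.15 ± 2.97 to 1.54 ± 0.700 CPM, and the summed macrophage markers ran from 77.9 to 358.7 CPM in Ctr BSA and from 84.1 to 128.5 CPM in Ctr PA. By batch these sums were 77.9 to 134.8 CPM in Ctr BSA and 84.1 to 92.9 CPM in Ctr PA of batch 1. In batch 2 they were 145.3 to 358.7 and 91.6 to 128.5 CPM. In αGlu cells only Csf1r of the 8 fell, while Cxcl12 (-1.27), Arhgdib (-1.05) and Maf (-2.14) were called lower there too. The part of fibroblasts and macrophages in the level of Ldha, Hk1 or the other disallowed genes was not tested.

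Rest, the RE1-silencing repressor, lies on the plus strand at chr5:77265491-77286432. It measured 4.28, 6.67 and 21.8 CPM in Ctr BSA and 2.999, 6.12 and 18.3 CPM in Ctr PA. In αGlu BSA it was at 4.09, 9.43 and 22.8 CPM and in αGlu PA at 1.60, 5.47 and 16.4 CPM. Batches differed widely, with batch 1 libraries at 6.83 CPM or more and batch 2 libraries at 6.99 CPM or less, so that only S1 of Ctr BSA in batch 1 fell within the range of batch 2. The log2 fold change with PA was -0.47 (SE 0.27, 95% interval -1.03 to 0.10, adjusted p = 0.206) in Ctr and -0.84 (SE 0.27, -1.41 to -0.28, adjusted p = 0.0243) in αGlu cells. The first passed without S1 of Ctr BSA (adjusted p = 0.0318), and the second was lost without any of S4, S6, S16, S18 or S24 (adjusted p from 0.0514 to 0.0641). The second was lost too with no filter on low counts (-0.84, adjusted p = 0.0509), without a batch term (-0.68, adjusted p = 0.516) and in batch 1 alone, where it was -0.55 (adjusted p = 0.512) against -1.27 (adjusted p = 6.84e-03) in batch 2 alone. With the replicate block the adjusted p was 0.0590 in Ctr and 1.06e-03 in αGlu cells. In batch 2 PA libraries lay below BSA libraries in both ASO groups, and in batch 1 they overlapped.

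Of 14 tested REST target genes, 8 rose and 1 fell in Ctr cells and 6 rose and 1 fell in αGlu cells, with median log2 fold changes of 0.23 and 0.15. Of all tested genes 15.3% rose and 14.2% fell in Ctr cells, and 14.3% rose and 14% fell in αGlu cells. Vgf, a granule peptide, rose by 0.72 (SE 0.18, adjusted p = 3.90e-03) and then by 0.90 (SE 0.18, adjusted p = 6.60e-04), while Cplx2 and Syt7, parts of the exocytosis machinery, rose by 0.27 each in Ctr cells (adjusted p = 9.02e-04 and 9.69e-04). Of 9 REST corepressor genes, 5 fell and none rose in Ctr cells, with Kdm1a, a histone demethylase, at -0.25 (adjusted p = 1.84e-04), Rcor3 at -0.22 (adjusted p = 5.83e-03) and Ehmt2, a histone methyltransferase, at -0.23 (adjusted p = 0.0144). In αGlu cells 3 of the 9 fell. The 1 target gene that fell in Ctr cells, Cplx1, was named after its value was seen (-1.01, SE 0.26, adjusted p = 3.99e-03). Rest itself was not called in Ctr cells, and a link between its level and these genes was not tested.

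Myc, the transcription factor of growth and ribosome synthesis, lies on the plus strand at chr15:61985391-61990374. It measured 9.19, 20.4 and 49.7 CPM in Ctr BSA against 12.5, 29.3 and 62.2 CPM in Ctr PA, and 9.43, 20.6 and 44.2 CPM in αGlu BSA against 17.01, 28.6 and 53.0 CPM in αGlu PA. The batches did not overlap, with 29.1 CPM or more in batch 1 and 21.5 CPM or less in batch 2. In batch 2 every PA library exceeded every BSA library in both ASO groups, and in batch 1 they overlapped. On the log2 scale the change was 0.46 (SE 0.18, 95% interval 0.09 to 0.82, adjusted p = 0.0555) in Ctr and 0.55 (SE 0.18, 0.18 to 0.91, adjusted p = 0.0248) in αGlu cells. In Ctr cells it crossed the threshold with DESeq2 (0.46, adjusted p = 0.0216), with 2 surrogate variables (0.74, adjusted p = 1.55e-04) and without any of 6 libraries (adjusted p from 0.0216 to 0.0457). In αGlu cells the call was lost without S2, S14 or S20 (adjusted p from 0.0565 to 0.0642) and without a batch term (0.40, adjusted p = 0.681). In batch 1 alone the log2 fold change was 0.24 in both Ctr and αGlu cells (adjusted p = 0.616 and 0.615), and in batch 2 alone it was 0.71 and 0.87 (adjusted p = 0.0185 and 6.26e-03). With the replicate block Myc passed in Ctr cells as well (0.45, SE 0.12, 95% interval 0.22 to 0.69, adjusted p = 4.01e-03), being higher with PA in 6 of 6 sets in each ASO group.

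Of 16 tested MYC target genes, 2 rose and 1 fell in Ctr cells and 3 rose and 2 fell in αGlu cells, with median log2 fold changes of 0.06 and 0.07. Odc1, the first enzyme of polyamine synthesis, rose from 199.3 ± 58.7 to 346.9 ± 75.6 CPM (SD, n = 6, log2 fold change 0.80, SE 0.23, adjusted p = 0.0119), and Cdk4 rose by 0.20 (adjusted p = 5.33e-03) while Nop56, a nucleolar protein, fell by 0.22 (adjusted p = 0.0192). Of the 9 MYC partner genes, 2 rose and 6 fell in Ctr cells. Max, the obligate partner, rose by 0.22 (adjusted p = 1.49e-03), Mxd4, an antagonist, fell by 0.23 (adjusted p = 7.48e-04) and Mycn, a paralogue of Myc, fell by 0.93 (adjusted p = 4.51e-04).

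MYC and its relatives bind the E-box CACGTG, so the promoters of the members were read from RefSeq for GRCm38.p6, from 250 bases before to 50 after each start site. Windows were found for 6 of the 9 members, 8 windows in all, and the E-box was present in those of Ldha and Slc16a1. It is present in 7.15% of all 32851 mouse promoter windows. The motif is its own reverse complement, so both strands were searched at once. Both sequences are shown because one gene fell with PA and the other did not, with each E-box in capitals.

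Ldha, chr7:46845554-46845853, plus strand: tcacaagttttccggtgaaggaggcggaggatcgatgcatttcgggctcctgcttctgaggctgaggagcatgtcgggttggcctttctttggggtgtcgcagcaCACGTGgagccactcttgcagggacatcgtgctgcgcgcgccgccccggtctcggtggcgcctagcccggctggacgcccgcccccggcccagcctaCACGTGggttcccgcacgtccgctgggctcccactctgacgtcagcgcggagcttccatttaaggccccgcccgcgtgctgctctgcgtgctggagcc

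Slc16a1, chr3:104638414-104638713, plus strand: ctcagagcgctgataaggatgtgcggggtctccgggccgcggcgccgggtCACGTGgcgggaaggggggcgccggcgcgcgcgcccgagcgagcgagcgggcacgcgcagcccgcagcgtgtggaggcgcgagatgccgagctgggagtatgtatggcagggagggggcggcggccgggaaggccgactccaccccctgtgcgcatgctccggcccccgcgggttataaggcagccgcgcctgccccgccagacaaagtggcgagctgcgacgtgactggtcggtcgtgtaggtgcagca

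The first bases of the E-boxes lie at -145 and -48 from the Ldha start site and at -200 from that of Slc16a1. The second Ldha window, at a downstream start site, held no E-box. A match of letters is not a bound site, and no binding was measured here.

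Neurog3 encodes the basic helix-loop-helix factor that specifies endocrine precursors. It is a gene of 1 exon at chr10:62133090-62134763 on the plus strand, and 273 of its 1674 exon bases are shared with Fam241b on the opposite strand. Fam241b held 7814 counts over all libraries against 662 for Neurog3. The library kit keeps the strand, but whether the counting used it is not given in the sources used here, so the counts of Neurog3 are uncertain. It had 15 to 59 counts per library. Its level was 0.592, 1.07 and 3.09 CPM in Ctr BSA, 0.598, 1.08 and 1.15 CPM in Ctr PA, 0.613, 0.845 and 2.06 CPM in αGlu BSA and 0.824, 1.03 and 1.08 CPM in αGlu PA. The 2 highest values were single BSA libraries of batch 1, S1 and S10. The log2 fold change with PA was -0.35 (SE 0.33, 95% interval -1.02 to 0.32, adjusted p = 0.444) in Ctr and 0.03 (SE 0.32, -0.64 to 0.69, adjusted p = 0.964) in αGlu cells, so a change of Neurog3 was not detectable at this depth. Without S1 the first was 0.01.

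Among 8 tested targets of NEUROG3, 1 rose and 1 fell in Ctr cells, the median log2 fold change being 0.00. Insm1, a zinc-finger factor of endocrine cells, rose by 0.18 (adjusted p = 0.0422), Cdkn1a, the cell-cycle inhibitor p21, fell by 0.35 (adjusted p = 4.46e-04), and Nkx2-2 stood at 0.15 (adjusted p = 0.104).

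Of 12 tested dedifferentiation and progenitor genes beside the members, none rose with PA and 6 fell in Ctr cells and 7 in αGlu cells, with medians of -0.31 and -0.41. Sox9, a progenitor and duct gene, fell by 1.39 (adjusted p = 1.33e-04), Mycl, a paralogue of Myc, by 0.96 (adjusted p = 6.76e-03) and Cd81, a surface marker of immature β-cells, by 0.30 (adjusted p = 0.0109) on the log2 scale. Aldh1a3 moved opposite to the called genes of this list. Of 15 maturity genes, 2 rose and 4 fell in Ctr cells, with a median of -0.04. Ucn3, a peptide of mature β-cells, rose by 0.58 (adjusted p = 3.22e-06), whereas Ins1 fell by 0.44 (adjusted p = 4.55e-04) and Mafa, a driver of insulin transcription, fell by 0.41 (adjusted p = 5.91e-04).

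Igfbp4 encodes a secreted binding protein of insulin-like growth factors. It lies on the plus strand at chr11:99041244-99054392 and had 8 to 318 counts per library. Its level was 0.867, 1.13 and 3.57 CPM in Ctr BSA and 0.430, 0.995 and 1.88 CPM in Ctr PA. In αGlu BSA it ran from 0.279 over a median of 0.9999 to 11.4 CPM and in αGlu PA from 0.4662 over 1.27 to 9.71 CPM. A single library in each αGlu group, S18 of αGlu BSA and S4 of αGlu PA, stood well above the next one at 3.21 and 3.05 CPM. On the log2 scale the change with PA was -0.76 (SE 0.84, 95% interval -2.51 to 0.99, adjusted p = 0.532) in Ctr and -0.04 (SE 0.82, -1.75 to 1.68, adjusted p = 0.981) in αGlu cells. The latter was -1.002 without S4 and 1.10 without S18, so its sign rested on single libraries. A change was not detectable with this spread between libraries.

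Over the 24 libraries, with group and batch means removed, the genes most like it among 13725 with a mean of at least 1 CPM were Col6a2 (Pearson's r 0.85), Adgrf5 (0.84) and Col6a1 (0.83), collagens of connective tissue and a receptor of endothelium. Without the 2 libraries farthest from the Igfbp4 median the r was 0.74 for Col6a2, 0.83 for Adgrf5 and 0.70 for Col6a1. These correlations are a description over libraries that share depth and composition, and no p is given. Library S18 also had the highest sum of fibroblast and stellate markers (1438 CPM). Library S4 did not (84.0 CPM), and its endothelial sum of 52.4 CPM was within the range of batch 1.

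**Figure D3:**
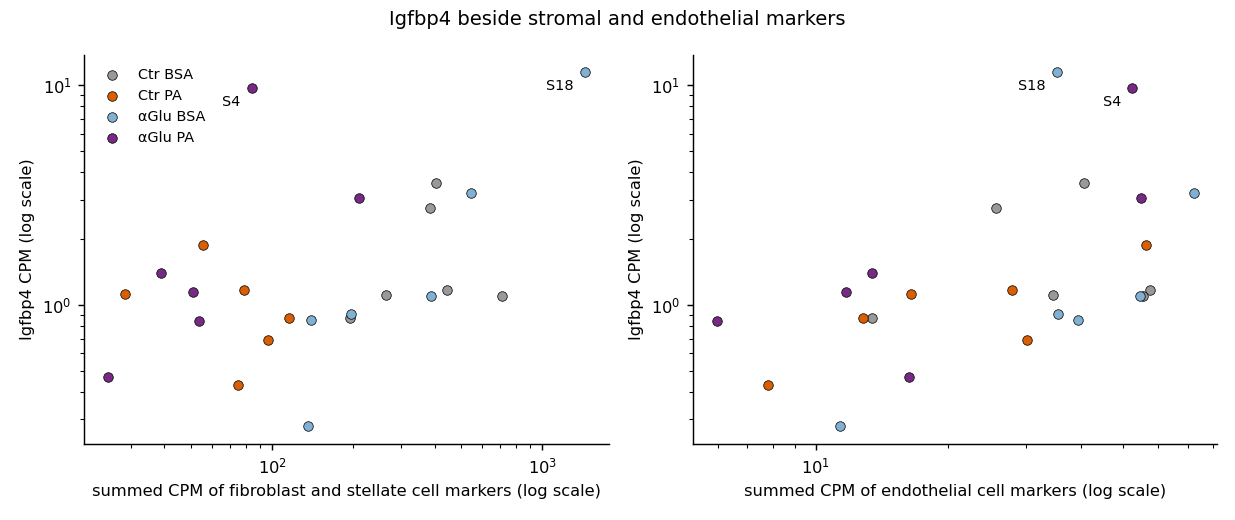
Igfbp4 (CPM, log y axis) in each library against the summed CPM (log x axis) of fibroblast and stellate cell markers (left) and endothelial cell markers (right), coloured by group. S18 of αGlu BSA lies at 11.4 CPM of Igfbp4 and 1438 CPM of fibroblast markers, and S4 of αGlu PA at 9.71 and 84.0 CPM.

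Of 13 tested partners of IGF-binding proteins, 1 rose and 4 fell in Ctr cells, the median log2 fold change being -0.65. Igfbp2 fell from 2.10 ± 1.08 to 0.108 ± 0.101 CPM (log2 fold change -4.24, SE 0.53, adjusted p = 1.49e-06), Igfbp7 from 120.9 ± 19.7 to 66.1 ± 7.92 CPM (-0.86, SE 0.08, adjusted p = 3.33e-08) and Igf1, a growth factor that macrophages and stroma make, from 7.21 ± 1.88 to 1.72 ± 1.09 CPM (-2.12, SE 0.39, adjusted p = 2.91e-04). The values in αGlu cells were -4.27, -0.77 and -1.85, all past the threshold. The riser, named after its value was seen, was Stc2 (0.86, SE 0.26, adjusted p = 0.0148).

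Oat encodes ornithine aminotransferase, which links ornithine to glutamate and proline. It lies on the minus strand at chr7:132557478-132576398. Its level overlapped between all groups, at 7.998, 11.04 and 15.3 CPM in Ctr BSA, 9.21, 9.51 and 15.1 CPM in Ctr PA, 8.599, 11.6 and 15.4 CPM in αGlu BSA and 7.74, 8.53 and 13.6 CPM in αGlu PA. The log2 fold change with PA was -0.13 (SE 0.15, 95% interval -0.43 to 0.18, adjusted p = 0.548) in Ctr and -0.30 (SE 0.15, -0.60 to 0.01, adjusted p = 0.139) in αGlu cells. In batch 2 of αGlu cells all PA libraries lay below all BSA libraries, and elsewhere they overlapped. With the replicate block the value in αGlu cells passed (-0.30, SE 0.11, 95% interval -0.53 to -0.06, adjusted p = 0.0441), with PA below BSA in 6 of 6 sets.

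Of 12 tested ornithine and proline genes, 4 rose and 5 fell in Ctr cells. Glul, glutamine synthetase, rose from 243.5 ± 31.2 to 322.9 ± 14.9 CPM (log2 fold change 0.42, SE 0.06, adjusted p = 3.69e-06), Pycr1, the last step of proline synthesis, rose by 0.47 (SE 0.06, adjusted p = 2.90e-06) and Ass1, a urea-cycle enzyme, fell by 0.51 (SE 0.08, adjusted p = 2.05e-05).

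**Figure D4:**
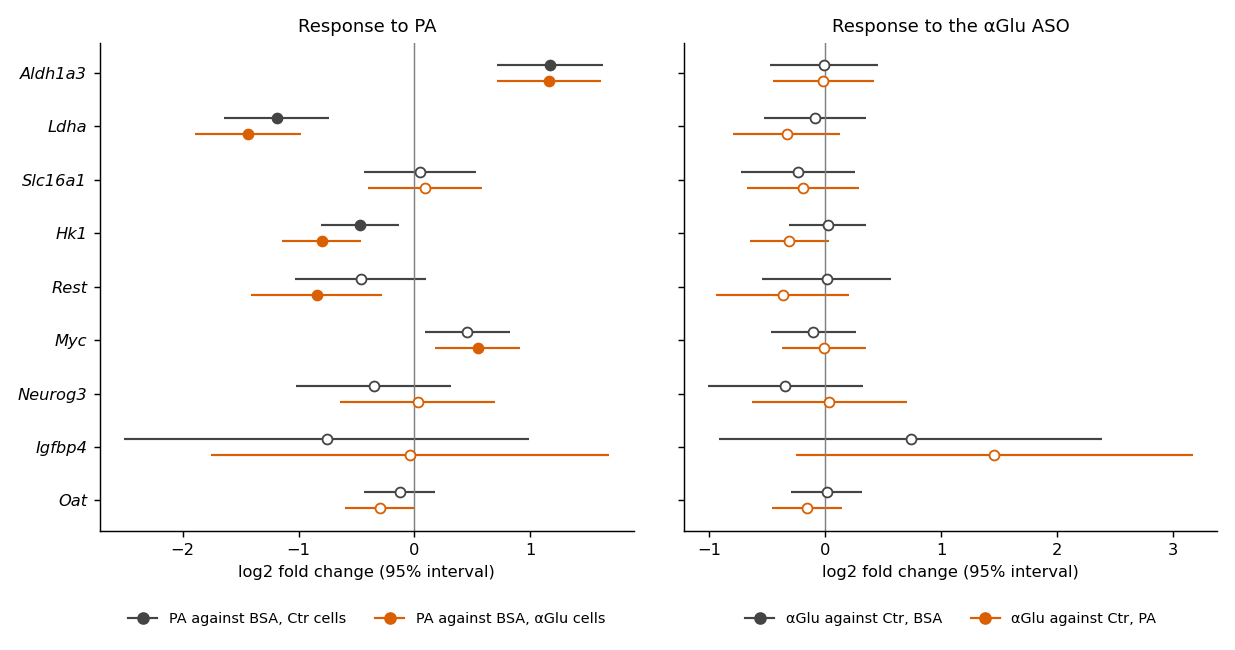
Log2 fold change (x axis) with 95% interval of each of the 9 genes with PA (left, dark for Ctr and orange for αGlu cells) and with the αGlu ASO (right, dark in BSA and orange in PA), filled where the adjusted p was below 0.05. On the left 3 genes are filled in Ctr and 5 in αGlu cells, and on the right none.

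The second question is whether the ASO against the fragment altered these genes. None of the 9 was called in BSA, in PA, or over both treatments together. With edgeR the share of all genes called was 0% within BSA, 0% within PA and 0.226% over both. No member reached an unadjusted p below 0.05 in any of the 3, and DESeq2 called none either. With the replicate block, again, no member was called (0.0565%, 0% and 0.195% of all genes were), but the intervals were narrower. In PA Ldha was then at -0.32 (95% interval -0.54 to -0.10, unadjusted p = 6.96e-03, adjusted p = 0.724) and lower with αGlu in 6 of 6 sets, and Hk1 was at -0.33 (-0.60 to -0.07, unadjusted p = 0.0158, adjusted p = 0.907) and lower in 4 of 6. Rest was at -0.35 (-0.72 to 0.03, unadjusted p = 0.0668, adjusted p = 0.907) and lower in 6 of 6 sets. Without the block the interval in PA was widest for Igfbp4 (log2 fold change 1.46, 95% interval -0.25 to 3.17, adjusted p = 0.995), a value that was 0.38 without S4. Hk1 stood at -0.31 (-0.65 to 0.04), Ldha at -0.33 (-0.79 to 0.13) and Rest at -0.37 (-0.94 to 0.20), all with an adjusted p of 0.995. Aldh1a3 was at -0.02 in PA (-0.45 to 0.42) and at -0.01 in BSA (-0.47 to 0.46), so a change of the size that PA brought (1.17) lay outside both intervals.

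The 4 genes of all lists that were called with the ASO came from the list of Schwann cell and glia markers. Over both treatments Cdh19, Foxd3, S100b and Gfap, markers of Schwann cells and glia, were lower in αGlu than in Ctr cells, with log2 differences from -3.88 for Gfap to -2.48 for S100b (adjusted p from 0.0289 to 0.0440). None of the 9 members is in that list.

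The difference between the PA responses of αGlu and Ctr cells was tested directly, since Rest and Myc were called in αGlu cells alone. No member passed (all adjusted p at 0.9995), as was the case for 0% of all genes, and none had an unadjusted p below 0.05. The difference was -0.38 (95% interval -1.17 to 0.42) for Rest, 0.09 (-0.43 to 0.61) for Myc, -0.33 (-0.81 to 0.15) for Hk1, -0.25 (-0.88 to 0.39) for Ldha and -0.01 (-0.65 to 0.63) for Aldh1a3. A response lower by 0.5 on the log2 scale in αGlu cells lay within the interval of every member except Myc, Aldh1a3 included. With the replicate block no member passed either, and the differences were -0.39 (-0.91 to 0.13, unadjusted p = 0.135, adjusted p = 0.976) for Rest, -0.34 (-0.71 to 0.02, unadjusted p = 0.0654, adjusted p = 0.976) for Hk1 and -0.22 (-0.52 to 0.09, unadjusted p = 0.156, adjusted p = 0.976) for Ldha. Both PA comparisons use different libraries, but they share 1 estimate of the spread and, by the methods, the animals.

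The third comparison is between batches. Over all groups, 7 of 9 members differed between batch 2 and batch 1, where 51.3% of all genes did (26% higher and 25.3% lower in batch 2). Only Aldh1a3 was higher in batch 2, by 1.04 (SE 0.15, adjusted p = 6.57e-06) on the log2 scale, beside 1.17 and 1.16 for its PA responses. The lower ones were Rest (-1.92, SE 0.20, adjusted p = 3.67e-08), Myc (-1.70, SE 0.13, adjusted p = 3.60e-10), Slc16a1 (-1.44, SE 0.17, adjusted p = 8.95e-08), Ldha (-1.16, SE 0.15, adjusted p = 2.16e-06), Hk1 (-0.84, SE 0.12, adjusted p = 1.35e-06) and Oat (-0.34, SE 0.10, adjusted p = 8.25e-03). Neurog3 (-0.39, SE 0.23, adjusted p = 0.165) and Igfbp4 (0.09, SE 0.61, adjusted p = 0.912) did not pass. With 2 surrogate variables beside the batch term the 7 became 1, and the differences of Ldha (0.42), Slc16a1 (0.75), Hk1 (0.10) and Oat (0.11) were positive. Surrogate variables can take up variation that follows the batches, and whether they did was not tested. Mean CPM was 44.9 in batch 1 and 21.3 in batch 2 for Ldha and 5.62 and 2.08 for Slc16a1. It was 14.03 and 7.84 for Hk1 and 12.1 and 9.63 for Oat. In the main fit all 7 calls remained with each of the 24 libraries left out.

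Other disallowed genes were lower in batch 2 as well, with 10 of 17 called lower and none higher and a median of -1.04, whereas 13 of 15 maturity genes were called higher and none lower, with a median of 0.42. The 8 acinar markers were all lower in batch 2, with a median of -4.37, and 5 of 8 endothelial markers were lower. What the batch stands for is not labelled, so cell source, culture and processing cannot be told apart.

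The PA response itself was compared between batches. No member passed (0.0565% of all genes did). The difference, batch 2 minus batch 1, was 0.54 (95% interval 0.05 to 1.02, unadjusted p = 0.0310, adjusted p = 0.785) for Myc and -2.66 (-4.82 to -0.50, unadjusted p = 0.0187, adjusted p = 0.684) for Igfbp4, and the unadjusted p of the other 7 lay above 0.05. Igfbp4 stood at 0.24 and 1.53 with PA in batch 1 and at -1.59 and -1.95 in batch 2 for Ctr and αGlu cells, none of them past the threshold.

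**Figure D5:**
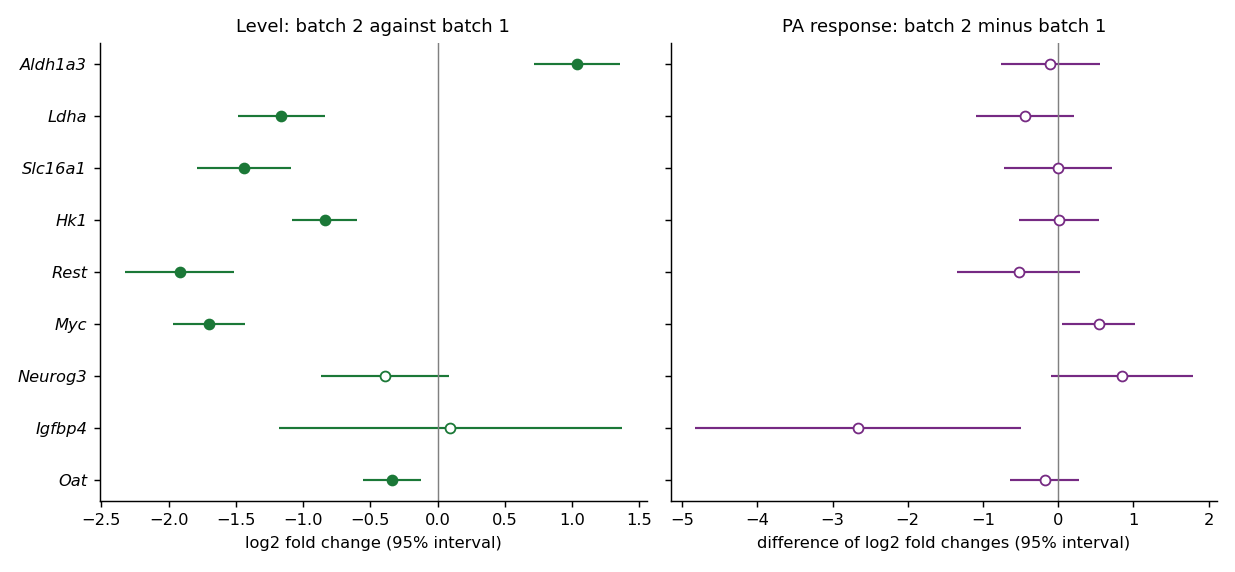
Log2 difference in level between batch 2 and batch 1 (left) and difference of the PA response between batches (right) for each of the 9 genes, with 95% intervals (x axes, log2 scale), filled where the adjusted p was below 0.05. On the left 7 genes are filled, with only Aldh1a3 to the right of 0, and on the right none is filled.

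With group and batch removed, the members did not vary as 1 block over the 24 libraries. The highest correlations between members were those of Slc16a1 with Rest (Pearson's r 0.72) and with Myc (0.71), of Ldha with Oat (0.71) and of Aldh1a3 with Ldha (0.63), although PA moved the last pair in opposite directions. The lowest was that of Rest with Neurog3 (-0.50). These are descriptions over libraries that share depth and composition.

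Each member had its own closest genes by the same measure. For Aldh1a3 they were AI506816 (0.86), Tubb6 (0.86) and Fhod1 (0.85), for Ldha Thbs1 (0.90), Piezo1 (0.89) and Antxr2 (0.88), and for Slc16a1 Rcan1, Fosl2 (both 0.90) and Sema3c (0.89). Rest was closest to Wwtr1 (0.92), Slc25a24 and Ehd4 (both 0.91), and Myc to Nupr1 (0.90), Slc7a3 (0.88) and Snx33 (0.87), of which Nupr1 and Slc7a3 are known as genes of the amino acid stress response. Hk1 was closest to Cd84 (0.85), Adamts5 (0.84) and Mpeg1 (0.82), and Oat to Hvcn1, Itgal and Cmtm3 (0.84 each). Cd84, Mpeg1, Hvcn1 and Itgal are known genes of leukocytes. For Neurog3, whose counts were low, the values for Dedd, Lcmt1 and Gdpgp1 were 0.77 to 0.79. Without the 2 libraries farthest from the member's median the r of Hk1 with Mpeg1 was 0.61 and that of Neurog3 with Dedd 0.55, while those of Rest with Wwtr1 (0.88) and Slc16a1 with Rcan1 (0.89) moved little.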

How the data were processed

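Gene expression was read from 24 stranded mRNA libraries of dispersed mouse islet cells. Per the labels and methods, the authors used the QIAGEN RNA-seq Analysis Portal 5.1, and the submitters' processing notes name GRCm38. The aligner, annotation and strand setting: not given in the sources used here. Their deposited table gives per gene a raw count of reads on exons, used here for all tests, and a deposited TPM, used for levels per length and shares. For the 9 members and their partners the authors' TPM matched the summed annotated exon length of GENCODE vM21, whose coordinates are printed. The 48 RPKM and CPM columns were not used, 0 columns belonged to other samples, and 1 row without a gene held 0 counts.

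Counts were analysed in R 4.3.3 with edgeR 4.0.16 (filterByExpr with a minimum count of 10, TMM, robust quasi-likelihood fit with group and batch over all 24 libraries), two-sided, with Benjamini-Hochberg adjustment over 15916 genes and calls at 0.05. Alternatives used DESeq2 1.42.0 and sva 3.50.0. Log2 CPM for likeness had a prior count of 2. The fit was also run on simulated counts with no batch difference, their means and spread taken from a fit to these data. The outcome is not given here. Alternatives were another scaling, another or no filter, no batch term, each batch alone, the compared groups alone, the study's rule, each library left out and, added after the data were seen, a block of library sets in place of batch. The sources name no molecular identifiers, so intervals from counts would cover counting error only, and precision rests on 6 libraries a group. Library correlations (log2 CPM) were 0.942 to 0.996, with no identical pair. Shares were compared by two-sided exact permutation, adjusted over 12 tests, and some of these tests and partner genes are not reported here.

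Named were the 9 members, the 3 genes of smallest p with PA in Ctr cells from each list and list genes called in another comparison of groups, partner genes, and the 3 genes most like each member. Other genes of a list are given as counts. The members and lists were chosen with earlier results of these data known, and lists were written by hand. Promoter sequences came from RefSeq (GRCm38.p6) and were searched for the E-box.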

Additional observations from a re-analysis of the deposited data

Results flagged for a closer look

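In 6 of 48 groups of 6 libraries tested, 1 library stood apart from the others by Dixon's criterion (the gap to the next library over the range). Chance marks about 1 in 20 groups when all values come from 1 normal population. Each group here mixes 2 batches, which can widen the range and hide a library that stands apart. That rate need not hold here, so no conclusion is drawn from the number of groups marked. Ldha was at 46.9 CPM in S7 of Ctr PA, with the next library at 23.4 CPM, and Oat was at 15.1 CPM in the same library, with the next at 11.3 CPM. Neurog3 was at 3.09 CPM in S1 of Ctr BSA (next 1.13 CPM) and at 2.06 CPM in S10 of αGlu BSA (next 0.987 CPM). Igfbp4 was at 11.4 CPM in S18 of αGlu BSA (next 3.21 CPM) and at 9.71 CPM in S4 of αGlu PA (next 3.05 CPM). The cause was not tested.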

How the results depend on the processing

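The groups share no replicate numbers in the labels, so the replicate block of 4 consecutive library numbers was assumed, after the data were seen. With group means within batches removed, each of the 24 libraries correlated best with its own set, the 36 pairs within sets at 0.0235 to 0.529 and 29 of them above 0.1, a hint from the data and not the design. With that block the members called were 4 in Ctr and 6 in αGlu cells, and it changed no other call of a member. Of 9 members, the 3 called with PA in Ctr cells became 1 without a batch term and 1 in batch 1 alone, and ran from 2 to 4 with 1 library left out. The 5 called in αGlu cells became 1 without a batch term, 1 in batch 1 alone and 2 by the study's rule, and ran from 4 to 5 with 1 library left out. With 2 surrogate variables the 7 called between batches became 1, and the differences of Ldha (0.42), Slc16a1 (0.75), Hk1 (0.10) and Oat (0.11) turned positive. The cause was not tested. Permuted within batches, the share differences with PA passed for Ldha in Ctr (-14.2 points) and αGlu cells (-20.9) and for Slc16a1 in Ctr (16.3) and αGlu (22.6). With 1 library left out, the share difference of Ldha in αGlu cells ran from -25.5 to -18.0 points and that of Slc16a1 from 19.8 to 26.2, passing only without S8 for Ldha and without S10 for Slc16a1 (adjusted p = 0.0260 for both). Of 567 other refits of single members, 538 kept their call, 29 changes of sign in uncalled values included. Of 1512 refits without 1 library, 1492 did, with 96 such changes. The low counts of Neurog3 and the spread of Igfbp4 between libraries limit both.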
